A study of Homo sapiens with 8 samples.

Results

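The glycolysis and hypoxia genes were a list of 46 symbols, of which 42 had a feature with that symbol among the 23786 features of the arrays. They were split by role into 23 glycolysis genes (glucose transporters, enzymes, and genes of lactate and pyruvate fate) and 19 genes of the hypoxia-inducible factor (HIF) pathway outside glycolysis (HIF subunits, their hydroxylases and known HIF targets). PGAM1, SLC16A1, SLC16A3 and CA9 were not analysed here. RNA came from the human melanoma lines WM983B and SK-Mel5, each carrying a pLKO1 lentivirus with either a scrambled control short hairpin RNA (shRNA) or shp300, an shRNA against EP300. Thus 4 groups of 2 arrays each were compared: WM983B scrambled, WM983B shp300, SK-Mel5 scrambled and SK-Mel5 shp300. All cells, controls included, had been transduced with polybrene at 8 µg/mL and selected in puromycin at 1.5 µg/mL from 48 h after transduction. The labels name no second hairpin against p300, give no low-oxygen step, and leave unsaid if replicates were grown as separate cultures, so the p-values speak of the spread among these arrays alone, possibly a technical one.

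Glycolysis splits glucose into pyruvate, and HIF is the transcription factor that raises many of the genes of this route when oxygen is short. HIF is a dimer of an oxygen-sensitive subunit, HIF1A or EPAS1, and the stable subunit ARNT. In the presence of oxygen, prolyl hydroxylases of the EGLN family mark the sensitive subunit for destruction. The acetyltransferases p300 (gene EP300) and CBP (gene CREBBP) are known coactivators that bind the sensitive subunit, and melanoma cells are known for active glycolysis also in the presence of oxygen.

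All values below are RMA log2 expression values, and a change is the mean of the shp300 arrays minus the mean of the scrambled arrays of the same line, with its standard error (SE) from limma. A gene is said to rise or fall where limma's adjusted p over all features was under 0.05. A number in parentheses after a left-out array or another setting is the adjusted p that limma gave there. EP300 RNA in SK-Mel5 was 7.19 and 6.90 on the scrambled and 5.97 and 6.10 on the shp300 arrays, and it fell, with a change of -1.01 (SE 0.155, adjusted p = 0.00377). In WM983B it was 7.10 and 7.22 on the scrambled and 6.92 and 7.26 on the shp300 arrays, so the groups overlapped and the change was -0.067 (95% interval -0.43 to 0.29, adjusted p = 0.832). The WM983B results are therefore those of arrays labelled shp300, with no measured loss of EP300 RNA. CREBBP rose in both lines, by 0.70 (1.62-fold, SE 0.137, adjusted p = 0.00846) in WM983B and 0.92 (1.9-fold, SE 0.137, adjusted p = 0.00328) in SK-Mel5, and without scrambled replicate 2 of WM983B the rise there was not called (adjusted p = 0.0573).

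Array medians were 4.27 on average in WM983B and 2.99 in SK-Mel5, so levels of the lines were not on a common scale and are not compared. Replicates of a group correlated at r between 0.992 and 0.996. Of the 8 melanocyte lineage markers sought, 7 were measured, and their mean log2 level per array was 10.45 to 10.46 in scrambled and 9.01 to 9.25 in shp300-labelled WM983B arrays, and 9.38 to 9.41 against 9.18 to 9.26 in SK-Mel5. Of the 7, 4 fell in WM983B, and 2 fell and 1 rose in SK-Mel5. MLANA fell by 3.41 in WM983B and fell by 1.47 in SK-Mel5 on the log2 scale, MITF fell by 1.71 in WM983B, and SOX10 passed the test in neither. Over 7 fibroblast, 5 keratinocyte, 4 leukocyte and 4 endothelial markers, DCN rose in both lines (0.71 and 1.33), LYZ (1.74) and KRT1 (0.68) rose in WM983B, and LUM fell by 0.88 in SK-Mel5. The summed linear levels of the 4 leukocyte markers were 47 to 49 in scrambled and 125 to 148 in shp300-labelled WM983B arrays, with PTPRC, CD3E and CD14 at log2 values up to 2.17. The summed fibroblast levels were 766 to 778 against 473 to 497 in SK-Mel5 and 1005 to 1145 against 872 to 993 in WM983B. LUM was the brightest of these markers, at a mean of 9.48 against 8.59 in SK-Mel5 and 9.91 against 9.66 in WM983B. The mean log2 level of the 7 went the other way, from 3.84 to 3.93 against 3.95 to 4.11 in SK-Mel5. In WM983B that mean was 4.65 to 4.68 against 4.68 to 4.73. The summed keratinocyte levels were 28 to 31 against 29 to 31 in WM983B, and none of the endothelial markers was called. Whether these markers had a part in the results below was not tested. In such bulk RNA, fewer cells of a type and less RNA per cell cannot be told apart.

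The glycolysis genes fell in both lines more often than they rose. In WM983B, 12 of 23 fell and 2 rose, with a median change of -0.43, and in SK-Mel5 11 fell and 1 rose, with a median of -0.56. The HIF pathway genes outside glycolysis mostly rose where called in WM983B and mostly fell where called in SK-Mel5. In WM983B, 6 of 19 rose and 2 fell (median 0.18), whereas in SK-Mel5 7 fell and 2 rose (median -0.32). Over all features the medians were 0.02 and 0.01.

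As the background for these counts, limma called 22.5% of all features in WM983B (10.9% higher, 11.6% lower) and 16.4% in SK-Mel5 (7.57% higher, 8.8% lower). Of the 42 members, 52.4% were called in WM983B (8 higher, 14 lower) and 50% in SK-Mel5 (3 higher, 18 lower). Of the glycolysis genes, 60.9% were called in WM983B (8.7% higher, 52.2% lower) and 52.2% in SK-Mel5 (4.35% higher, 47.8% lower). Of the HIF pathway genes, 42.1% were called in WM983B (31.6% higher, 10.5% lower) and 47.4% in SK-Mel5 (10.5% higher, 36.8% lower). The arrays call bright features more often, and 39 of the members lie above the median level. Among all features above it, 37.9% were called in WM983B (17.7% higher, 20.2% lower) and 29.7% in SK-Mel5 (13.7% higher, 16% lower). The share of HIF pathway genes called in WM983B was thus near that of bright features. Under all 15 alternative settings, 15 of the 22 WM983B calls and 9 of the 21 SK-Mel5 calls were kept. The glycolysis count was 9 without WM983B scrambled replicate 2 in WM983B and 7 without SK-Mel5 scrambled replicate 2 in SK-Mel5. The HIF pathway count in SK-Mel5 was 5 without SK-Mel5 scrambled replicate 1 and 4 without SK-Mel5 scrambled replicate 2.

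**Figure D1:**
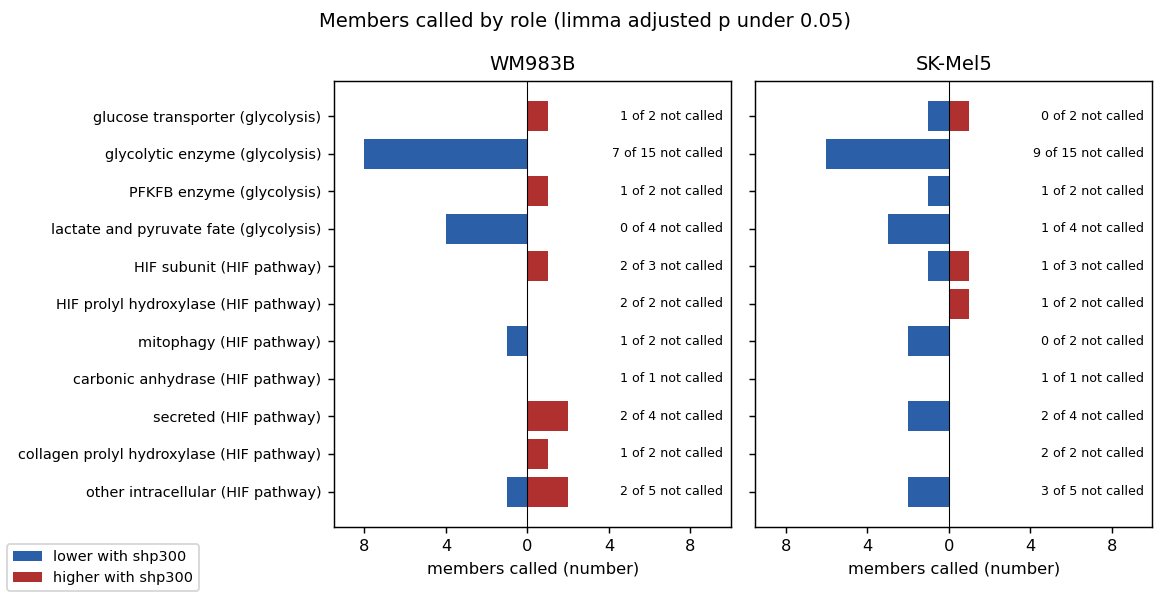
Number of members called higher (red, right) or lower (blue, left) on shp300 arrays by limma, for each role and line; the text at the right of each bar gives the members not called. In WM983B 8 of 15 glycolytic enzymes and 4 of 4 lactate and pyruvate genes are lower, and in SK-Mel5 6 of 15 and 3 of 4.

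Across both lines, 8 members fell in each: the glycolysis genes HK2, PFKP, ALDOC, ENO2, LDHA, PDK1 and PDK3, and the mitophagy gene BNIP3. SLC2A3 and ARNT rose in each. PFKFB4, VEGFA and BHLHE40 rose in WM983B and fell in SK-Mel5. The share of all features called in both lines was not determined, so these shared counts are not set against a background. The other members were called in 1 line (17 genes) or in none (12 genes). The plot of all members by array shows that the 2 arrays of a group mostly shared a direction: both shp300-labelled arrays lay below both scrambled arrays for 22 members in WM983B and 31 in SK-Mel5, against 27.8% and 25.1% of all features. They lay above for 14 and 5 members, against 30.6% and 26.3% of all features, and overlapped for 6 members in each line.

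**Figure D2:**
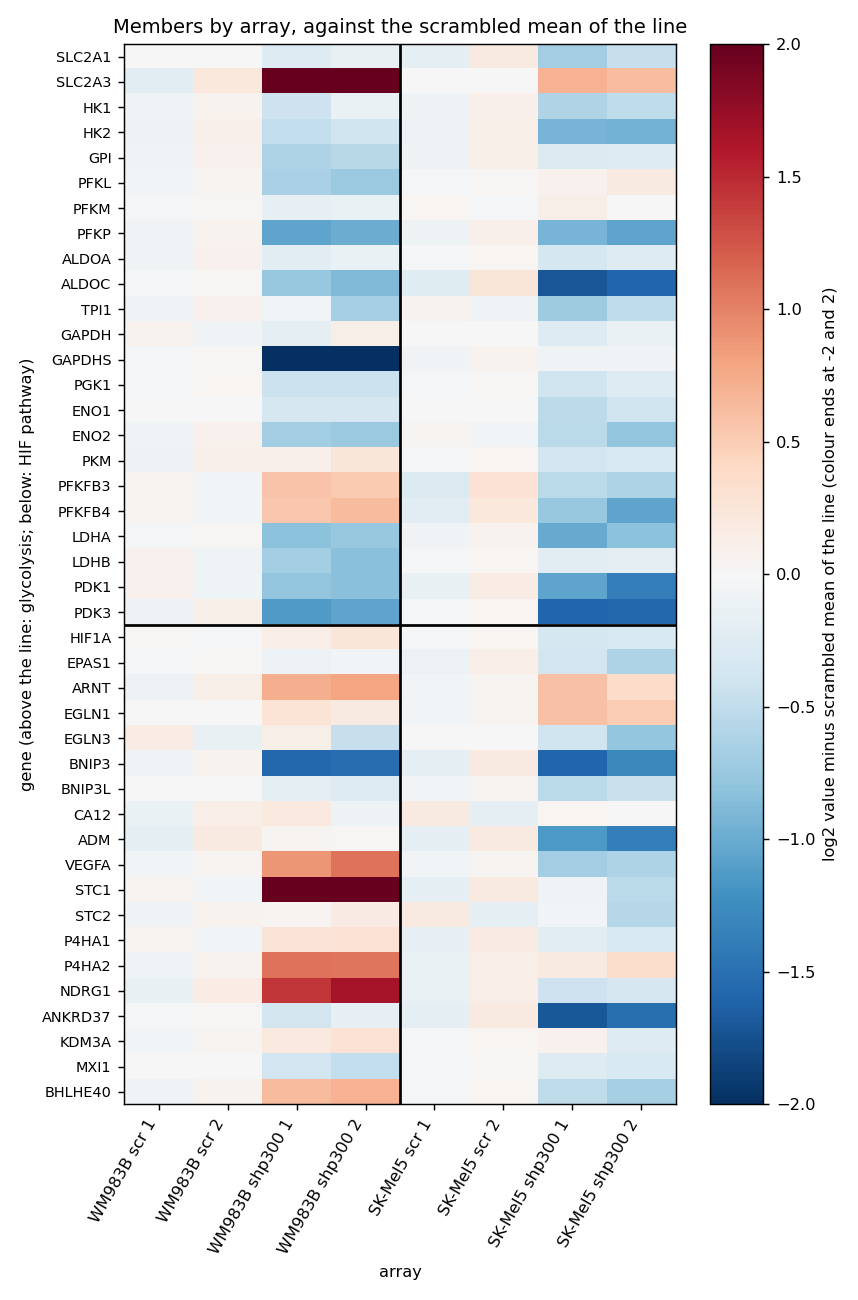
Log2 value of each of the 42 members on each of the 8 arrays minus the mean of the scrambled arrays of that line (colour, blue lower and red higher); rows are genes by role, and the horizontal line parts glycolysis from HIF pathway genes. PDK3 and BNIP3 are blue on all 4 shp300 arrays, while STC1, NDRG1 and VEGFA are clearly red only on those labelled WM983B shp300; values of SLC2A3, GAPDHS and STC1 in WM983B lie beyond the ends of the scale.

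Promoters were described because many members are known HIF targets. Whether p300 or HIF acted at them was not tested. RefSeq promoter windows (GRCh38.p14, 250 bases before to 50 after the start of the gene) were matched by gene number to 37 of the 42 members. The letters ACGTG and GCGTG, the core of the hypoxia response element, were searched on both strands, and a palindromic CACGTG counts once per strand. At least 1 match was found in 28 of 37 member windows (75.7%), in 17 of 22 for glycolysis and 11 of 15 for HIF pathway genes. The share was 48.4% over all 35116 windows and 54.5% over those of genes with a feature on the arrays. Since the members were chosen as glycolysis and HIF pathway genes, a higher share among them is not an independent result. G and C made up 67.1% of the bases of member windows and 60.8% of those of genes with a feature, and the part of this base composition in the share was not tested. Among members that fell in SK-Mel5, 13 of 16 windows held a match, and among the others 15 of 21. The windows of PDK1, PFKP and HK1, which fell in SK-Mel5, held no match. A match is a description of letters and does not show a bound site.

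The windows of the 4 members with the largest falls in SK-Mel5 among those with a match are given 5′ to 3′ on the strand of the gene, with the matches in capitals. They lie at chr17:28576846-28577145 (ALDOC, minus strand), chr4:185396591-185396890 (ANKRD37, plus strand), chrX:24465036-24465335 (PDK3, plus strand) and chr10:131981874-131982173 (BNIP3, minus strand). ALDOC has 5 matches, ANKRD37 3, PDK3 2 and BNIP3 6, and adjacent matches run together in capitals.
ALDOC: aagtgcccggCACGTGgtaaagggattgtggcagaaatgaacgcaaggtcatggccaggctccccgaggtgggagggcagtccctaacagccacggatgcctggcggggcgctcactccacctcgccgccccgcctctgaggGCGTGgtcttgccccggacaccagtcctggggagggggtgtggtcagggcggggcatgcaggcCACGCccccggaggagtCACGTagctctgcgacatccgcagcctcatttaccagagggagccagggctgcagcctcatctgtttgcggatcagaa
ANKRD37: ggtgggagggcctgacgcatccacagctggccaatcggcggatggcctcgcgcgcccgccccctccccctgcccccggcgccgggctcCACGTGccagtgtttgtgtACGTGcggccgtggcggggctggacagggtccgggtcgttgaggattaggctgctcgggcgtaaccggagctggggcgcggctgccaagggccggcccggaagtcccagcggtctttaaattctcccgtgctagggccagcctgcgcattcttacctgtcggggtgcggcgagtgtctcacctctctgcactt
PDK3: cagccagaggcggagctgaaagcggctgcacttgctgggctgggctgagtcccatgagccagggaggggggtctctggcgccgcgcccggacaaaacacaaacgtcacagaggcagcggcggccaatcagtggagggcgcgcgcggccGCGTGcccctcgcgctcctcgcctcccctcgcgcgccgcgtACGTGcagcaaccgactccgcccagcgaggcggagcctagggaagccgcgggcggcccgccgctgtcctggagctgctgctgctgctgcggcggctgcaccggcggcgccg
BNIP3: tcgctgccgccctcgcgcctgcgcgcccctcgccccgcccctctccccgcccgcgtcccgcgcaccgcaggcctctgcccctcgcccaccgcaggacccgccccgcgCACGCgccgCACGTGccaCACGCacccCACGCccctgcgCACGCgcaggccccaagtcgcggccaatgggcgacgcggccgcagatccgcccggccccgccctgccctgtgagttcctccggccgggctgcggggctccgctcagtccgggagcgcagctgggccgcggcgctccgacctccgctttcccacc

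Glucose enters cells through SLC2A1 (GLUT1) and SLC2A3 (GLUT3). SLC2A3 was 4.79 and 5.21 on the scrambled and 7.11 and 7.20 on the shp300 arrays in WM983B, and 5.93 and 5.93 on the scrambled and 6.62 and 6.54 on the shp300 arrays in SK-Mel5. Both shp300 arrays lay above both scrambled arrays in each line, by a wider margin in WM983B. It rose by 2.16 (4.46-fold, SE 0.148, adjusted p = 7.78e-05) in WM983B and by 0.65 (1.57-fold, SE 0.148, adjusted p = 0.0205) in SK-Mel5, and the WM983B change exceeded that of SK-Mel5 by 1.51 (SE 0.209, adjusted p = 0.00563). SLC2A1 was 8.06 and 8.05 on the scrambled and 7.80 and 7.91 on the shp300 arrays in WM983B, and 5.60 and 5.96 on the scrambled and 5.08 and 5.31 on the shp300 arrays in SK-Mel5. Its shp300 arrays were the lower ones in both lines, with narrow gaps. It fell in SK-Mel5, by 0.58 (1.5-fold, SE 0.148, adjusted p = 0.0315), and in WM983B its change was -0.20 (95% interval -0.54 to 0.14, adjusted p = 0.411). The SK-Mel5 call of SLC2A3 was lost without SK-Mel5 scrambled replicate 1 (0.0944) or 2 (0.0905) and shp300 replicate 1 (0.0831) or 2 (0.0629). That of SLC2A1 was lost without SK-Mel5 scrambled replicate 2 (0.17), SK-Mel5 shp300 replicate 1 (0.138) or either scrambled WM983B array (0.0594 each), after quantile normalization (0.0571) and when SK-Mel5 was fitted by itself (0.127).

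Hexokinases HK1 and HK2 phosphorylate glucose and hold it in the cell. HK2, the inducible form, was 6.91 and 7.12 on the scrambled and 6.52 and 6.62 on the shp300 arrays in WM983B, and 6.28 and 6.50 on the scrambled and 5.46 and 5.44 on the shp300 arrays in SK-Mel5, with every shp300 array below every scrambled array of its line. It fell by 0.44 (SE 0.128, adjusted p = 0.0406) in WM983B and by 0.94 (1.92-fold, SE 0.128, adjusted p = 0.00216) in SK-Mel5. HK1 fell by 0.56 (1.47-fold, SE 0.139, adjusted p = 0.0303) in SK-Mel5, and in WM983B its change was -0.27 (95% interval -0.59 to 0.049, adjusted p = 0.228). GPI, which turns glucose phosphate into fructose phosphate, fell by 0.59 (1.5-fold, SE 0.121, adjusted p = 0.0103) in WM983B, with -0.28 (95% interval -0.56 to 0.005, adjusted p = 0.187) in SK-Mel5. The WM983B call of HK2 was close to the threshold and was lost on leaving out replicate 1 (0.0628) or 2 (0.219) of scrambled WM983B, replicate 1 (0.161) or 2 (0.0941) of shp300-labelled WM983B, or either SK-Mel5 shp300 array (0.0543 each). It was also lost after quantile normalization (0.0558) and from the WM983B arrays alone (0.0607). The HK1 call was lost from the SK-Mel5 arrays alone (0.0704), without SK-Mel5 scrambled replicate 1 (0.059) or 2 (0.166), SK-Mel5 shp300 replicate 1 (0.114) or 2 (0.0778), or WM983B scrambled replicate 1 or 2 (0.0505 each), and that of GPI without WM983B scrambled replicate 2 (0.0775) or shp300 replicate 1 (0.0572).

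Phosphofructokinase commits sugar to glycolysis, and PFKP, PFKL and PFKM are its subunits. PFKP was 8.81 and 8.96 on the scrambled and 7.83 and 7.89 on the shp300 arrays in WM983B, and 7.50 and 7.71 on the scrambled and 6.67 and 6.55 on the shp300 arrays in SK-Mel5, and the groups did not overlap in either line. It fell by 1.02 (2.03-fold, SE 0.123, adjusted p = 0.000866) in WM983B and by 0.99 (1.99-fold, SE 0.123, adjusted p = 0.00143) in SK-Mel5, and the 2 changes differed by -0.028 (95% interval -0.43 to 0.37, adjusted p = 0.948). PFKL was 8.17 and 8.27 on the scrambled and 7.57 and 7.48 on the shp300 arrays in WM983B, and 6.40 and 6.46 on the scrambled and 6.51 and 6.61 on the shp300 arrays in SK-Mel5. Its shp300-labelled arrays were the lower ones in WM983B and the higher ones in SK-Mel5. PFKL fell by 0.70 (1.62-fold, SE 0.108, adjusted p = 0.00286) in WM983B, its SK-Mel5 change was 0.13 (95% interval -0.12 to 0.38, adjusted p = 0.526), and the difference of the changes was -0.83 (SE 0.153, adjusted p = 0.0161). PFKM changed by -0.15 (95% interval -0.40 to 0.093, adjusted p = 0.391) in WM983B and by 0.058 (95% interval -0.19 to 0.30, adjusted p = 0.811) in SK-Mel5. The call of the PFKL difference was lost without WM983B scrambled replicate 2 (0.072), WM983B shp300 replicate 2 (0.0555) or SK-Mel5 scrambled replicate 1 (0.0634).

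The bifunctional enzymes PFKFB3 and PFKFB4, which make or remove the activator of phosphofructokinase, are known HIF targets, and for each the changes had opposite signs in the lines. PFKFB4 was 7.66 and 7.54 on the scrambled and 8.14 and 8.23 on the shp300 arrays in WM983B, and 5.02 and 5.44 on the scrambled and 4.47 and 4.17 on the shp300 arrays in SK-Mel5. The shp300-labelled arrays thus lay above the scrambled ones in WM983B and below them in SK-Mel5. PFKFB4 rose by 0.58 (1.5-fold, SE 0.167, adjusted p = 0.0402) in WM983B and fell by 0.91 (1.87-fold, SE 0.167, adjusted p = 0.00862) in SK-Mel5, a difference of 1.49 (SE 0.236, adjusted p = 0.00914). PFKFB3 was 7.28 and 7.16 on the scrambled and 7.79 and 7.75 on the shp300 arrays in WM983B, and 5.36 and 5.93 on the scrambled and 5.11 and 5.03 on the shp300 arrays in SK-Mel5, again with no overlap and with opposite order. Its changes of 0.55 (95% interval 0.13 to 0.96, adjusted p = 0.0652) in WM983B and -0.57 (95% interval -0.99 to -0.16, adjusted p = 0.0693) in SK-Mel5 did not pass, and their difference of 1.12 (SE 0.254, adjusted p = 0.033) did. The WM983B change of PFKFB3 was called with dim features left out (0.0292), with trend and robust moderation (0.0228) and from the WM983B arrays alone (0.0221). Its SK-Mel5 change was called with dim features left out (0.0282) and with trend and robust moderation (0.0223). Without SK-Mel5 scrambled replicate 1, the SK-Mel5 change of PFKFB3 was -0.86. The WM983B call of PFKFB4 was lost on leaving out replicate 1 (0.112) or 2 (0.184) of scrambled WM983B, replicate 1 (0.11) or 2 (0.157) of shp300-labelled WM983B, and after centring each array (0.0511). Its SK-Mel5 call was lost from the SK-Mel5 arrays alone (0.0715) and without SK-Mel5 scrambled replicate 2 (0.0502) or shp300 replicate 2 (0.05). The PFKFB3 difference was not called on leaving out replicate 1 (0.0873) or 2 (0.118) of scrambled WM983B, replicate 1 (0.0942) or 2 (0.0889) of shp300-labelled WM983B, SK-Mel5 scrambled replicate 2 (0.0508), or SK-Mel5 shp300 replicate 1 (0.0637) or 2 (0.0861).

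Of the aldolases, which cleave the sugar, ALDOC fell and ALDOA did not pass. ALDOC was 6.30 and 6.34 on the scrambled and 5.56 and 5.43 on the shp300 arrays in WM983B, and 5.46 and 5.95 on the scrambled and 3.99 and 4.11 on the shp300 arrays in SK-Mel5. In both lines the groups stood apart, further in SK-Mel5. It fell by 0.83 (1.77-fold, SE 0.165, adjusted p = 0.00885) in WM983B and by 1.65 (3.14-fold, SE 0.165, adjusted p = 0.000541) in SK-Mel5, and the difference of these changes was 0.83 (95% interval 0.29 to 1.37, adjusted p = 0.0676), which was called without SK-Mel5 scrambled replicate 1 (0.0282). ALDOA changed by -0.17 (95% interval -0.43 to 0.087, adjusted p = 0.351) and by -0.31 (95% interval -0.57 to -0.045, adjusted p = 0.117) in the same order. With dim features left out, the SK-Mel5 change of ALDOA (0.0405) and the ALDOC difference (0.0277) were called. That difference was also called with trend and robust moderation (0.0331). The WM983B call of ALDOC was lost without WM983B scrambled replicate 2 (0.059) or shp300 replicate 2 (0.0581).

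The enzymes of the lower part of the route yield ATP and pyruvate. PGK1 (phosphoglycerate kinase) fell by 0.43 (1.35-fold, SE 0.107, adjusted p = 0.0221) in WM983B, and in SK-Mel5 its change was -0.32 (95% interval -0.57 to -0.077, adjusted p = 0.083). Of the enolases, ENO2 fell by 0.73 (1.65-fold, SE 0.127, adjusted p = 0.00488) in WM983B and by 0.66 (1.58-fold, SE 0.127, adjusted p = 0.0102) in SK-Mel5, while ENO1 fell by 0.46 (1.38-fold, SE 0.105, adjusted p = 0.0204) in SK-Mel5 and changed by -0.34 (95% interval -0.58 to -0.094, adjusted p = 0.0545) in WM983B. The WM983B change of ENO1 was called with dim features left out (0.0163). TPI1, GAPDH and PKM, the triose phosphate isomerase, glyceraldehyde phosphate dehydrogenase and pyruvate kinase genes, passed in neither line. GAPDH changed by -0.027 (95% interval -0.33 to 0.28, adjusted p = 0.926) in WM983B and by -0.20 (95% interval -0.50 to 0.11, adjusted p = 0.405) in SK-Mel5, and PKM by 0.17 (95% interval -0.11 to 0.45, adjusted p = 0.389) and -0.34 (95% interval -0.62 to -0.067, adjusted p = 0.0986). TPI1 changed by -0.36 (95% interval -0.82 to 0.093, adjusted p = 0.258) and -0.61 (95% interval -1.07 to -0.15, adjusted p = 0.0776). With dim features left out, the SK-Mel5 changes of PGK1 (0.0248), PKM (0.0343) and TPI1 (0.0331) were also called. The PGK1 call was lost without WM983B scrambled replicate 1 (0.0746) or 2 (0.119) and shp300 replicate 1 (0.0811) or 2 (0.0788). The SK-Mel5 calls of ENO1 and ENO2 were lost from the SK-Mel5 arrays alone (0.0733 and 0.0563) and without SK-Mel5 scrambled replicate 1 (0.0878 and 0.068). That of ENO1 was also lost without SK-Mel5 scrambled replicate 2 (0.0988) or shp300 replicate 1 (0.0905), and that of ENO2 without SK-Mel5 shp300 replicate 2 (0.0542). In WM983B, TPI1 was called without WM983B shp300 replicate 1 (0.0367), and in SK-Mel5 without either WM983B shp300 array (0.0258 each).

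GAPDHS, a form of the dehydrogenase known from sperm, gave the largest fall among the members in WM983B. It was 8.67 and 8.71 on the scrambled and 6.10 and 5.15 on the shp300 arrays in WM983B, so both shp300-labelled arrays were far below both scrambled ones and differed from each other. GAPDHS fell by 3.07 (8.38-fold, SE 0.261, adjusted p = 0.000186). In SK-Mel5 it was 1.83 and 1.97 on the scrambled and 1.83 and 1.84 on the shp300 arrays, with overlapping groups at percentile 33.1 of all features in scrambled cells. The difference between the changes was -3.00 (SE 0.37, adjusted p = 0.00376), and its size is uncertain because the SK-Mel5 level was not shown to be above background and a fall might not be measurable there. RefSeq lists 65 numbered pseudogenes of GAPDH, 46 of BNIP3 and 6 of LDHA, and 16 members have at least 1. Whether probes of these features also bind such copies could not be checked, since no source used here gives the assignment of probes.

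The fate of pyruvate is set by lactate dehydrogenase (LDHA, LDHB), which exchanges it with lactate, and by the pyruvate dehydrogenase kinases PDK1 and PDK3, which inhibit pyruvate dehydrogenase, the mitochondrial enzyme that turns pyruvate into acetyl-CoA. All 4 fell in WM983B and 3 fell in SK-Mel5. LDHA was 7.52 and 7.55 on the scrambled and 6.71 and 6.77 on the shp300 arrays in WM983B, and 5.90 and 6.03 on the scrambled and 4.96 and 5.15 on the shp300 arrays in SK-Mel5, with no overlap in either line. It fell by 0.79 (1.73-fold, SE 0.116, adjusted p = 0.00222) in WM983B and by 0.92 (1.89-fold, SE 0.116, adjusted p = 0.0016) in SK-Mel5. LDHB fell by 0.76 (1.69-fold, SE 0.115, adjusted p = 0.00258) in WM983B, and its SK-Mel5 change was -0.21 (95% interval -0.47 to 0.058, adjusted p = 0.301). Whether LDHB differed between the lines did not pass the test, at -0.55 (95% interval -0.92 to -0.17, adjusted p = 0.0792), and did pass with dim features left out (0.0269) or with trend and robust moderation (0.00539).

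PDK3 was 6.78 and 7.01 on the scrambled and 5.76 and 5.84 on the shp300 arrays in WM983B, and 6.35 and 6.43 on the scrambled and 4.80 and 4.82 on the shp300 arrays in SK-Mel5. All shp300 arrays lay below the scrambled arrays of their line. PDK3 fell by 1.09 (2.13-fold, SE 0.118, adjusted p = 0.000529) in WM983B and by 1.58 (2.99-fold, SE 0.118, adjusted p = 0.000154) in SK-Mel5. PDK1, a known HIF1A target, was 8.72 and 8.54 on the scrambled and 7.84 and 7.80 on the shp300 arrays in WM983B, and 6.39 and 6.68 on the scrambled and 5.48 and 5.15 on the shp300 arrays in SK-Mel5, again without overlap. It fell by 0.81 (1.75-fold, SE 0.157, adjusted p = 0.00773) and by 1.22 (2.33-fold, SE 0.157, adjusted p = 0.00167) in these lines. Without scrambled replicate 1 of WM983B, the fall of PDK1 in that line was not called (adjusted p = 0.0615).

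HIF1A is known to be set mainly at the protein level, which was not measured here. HIF1A was 10.21 and 10.18 on the scrambled and 10.32 and 10.44 on the shp300 arrays in WM983B, and 8.04 and 8.12 on the scrambled and 7.73 and 7.79 on the shp300 arrays in SK-Mel5. The shp300-labelled arrays were the higher ones in WM983B and the lower ones in SK-Mel5, by narrow gaps. Neither change passed, at 0.18 (95% interval -0.062 to 0.43, adjusted p = 0.291) and -0.32 (95% interval -0.57 to -0.078, adjusted p = 0.0806). The SK-Mel5 change of HIF1A was called with dim features left out (0.0238) and with trend and robust moderation (0.0056). The difference of the HIF1A changes was 0.51 (95% interval 0.16 to 0.85, adjusted p = 0.0792) and did not pass. It was called under these same settings (0.0248 and 0.00536). EPAS1, which encodes HIF-2α, fell by 0.50 (1.42-fold, SE 0.134, adjusted p = 0.0387) in SK-Mel5, with -0.082 (95% interval -0.39 to 0.23, adjusted p = 0.747) in WM983B. ARNT rose by 0.75 (1.69-fold, SE 0.13, adjusted p = 0.00463) in WM983B and by 0.47 (1.39-fold, SE 0.13, adjusted p = 0.043) in SK-Mel5. The SK-Mel5 calls of EPAS1 and ARNT stood at the threshold and were lost without any of 7 and 8 single arrays. For EPAS1 these were all but SK-Mel5 shp300 replicate 1, with adjusted p from 0.0549 to 0.203, and for ARNT all 8, from 0.0528 to 0.2. From the SK-Mel5 arrays alone they were 0.134 and 0.101.

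The prolyl hydroxylases that act on HIF are themselves known HIF targets. EGLN1 rose by 0.55 (1.46-fold, SE 0.107, adjusted p = 0.0113) in SK-Mel5, and its WM983B change was 0.23 (95% interval -0.018 to 0.48, adjusted p = 0.185). EGLN3 stood below the median feature and changed by -0.18 (95% interval -0.67 to 0.32, adjusted p = 0.644) and -0.59 (95% interval -1.09 to -0.10, adjusted p = 0.11). The EGLN1 call was lost without SK-Mel5 scrambled replicate 1 (0.0783) or shp300 replicate 1 (0.052), or with SK-Mel5 fitted by itself (0.0536).

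BNIP3 and BNIP3L encode mitochondrial receptors for mitophagy, and BNIP3 was the HIF pathway gene that fell in both lines. It was 8.41 and 8.55 on the scrambled and 6.91 and 6.95 on the shp300 arrays in WM983B, and 7.95 and 8.30 on the scrambled and 6.54 and 6.83 on the shp300 arrays in SK-Mel5. All shp300 arrays lay more than a log2 unit below the scrambled arrays of their line. BNIP3 fell by 1.55 (2.92-fold, SE 0.155, adjusted p = 0.000356) in WM983B and by 1.44 (2.71-fold, SE 0.155, adjusted p = 0.00078) in SK-Mel5, and the changes differed by -0.11 (95% interval -0.62 to 0.40, adjusted p = 0.824). BNIP3L fell by 0.49 (1.41-fold, SE 0.106, adjusted p = 0.0165) in SK-Mel5, with -0.22 (95% interval -0.46 to 0.027, adjusted p = 0.204) in WM983B. Its call was lost from the SK-Mel5 arrays alone (0.0639) and without SK-Mel5 scrambled replicate 1 (0.0581) or 2 (0.0983) or shp300 replicate 1 (0.073).

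Among genes of secreted factors, VEGFA and STC1 rose in WM983B, while VEGFA and ADM fell in SK-Mel5. VEGFA, the main angiogenic growth factor, was 6.96 and 7.08 on the scrambled and 7.90 and 8.11 on the shp300 arrays in WM983B, and 4.98 and 5.08 on the scrambled and 4.34 and 4.41 on the shp300 arrays in SK-Mel5. The groups did not overlap, and their order was opposite in the lines. VEGFA rose by 0.99 (1.98-fold, SE 0.119, adjusted p = 0.000887) in WM983B and fell by 0.66 (1.58-fold, SE 0.119, adjusted p = 0.00803) in SK-Mel5, and the difference of 1.64 (SE 0.168, adjusted p = 0.00224) was called. Its SK-Mel5 call was lost without SK-Mel5 scrambled replicate 2 (adjusted p = 0.0559).

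STC1, a glycoprotein hormone gene, gave the largest rise among the members. It was 3.68 and 3.57 on the scrambled and 7.71 and 7.84 on the shp300 arrays in WM983B, where the scrambled arrays stood at percentile 42.5 of all features and the shp300-labelled ones far above. It rose by 4.15 (17.7-fold, SE 0.183, adjusted p = 2.24e-05), and its size is uncertain because the scrambled level was not shown to be above background. In SK-Mel5, STC1 was 8.29 and 8.63 on the scrambled and 8.39 and 7.92 on the shp300 arrays, with overlapping groups and a change of -0.31 (95% interval -0.73 to 0.12, adjusted p = 0.343). The WM983B change exceeded it by 4.45 (SE 0.259, adjusted p = 0.000362). STC2, its paralog, stood below the median feature and changed by 0.11 (95% interval -0.33 to 0.55, adjusted p = 0.767) and -0.32 (95% interval -0.76 to 0.12, adjusted p = 0.345).

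ADM, the gene of the vasodilator peptide adrenomedullin, was 3.44 and 3.81 on the scrambled and 3.68 and 3.66 on the shp300 arrays in WM983B, and 5.22 and 5.58 on the scrambled and 4.26 and 4.03 on the shp300 arrays in SK-Mel5. The WM983B groups overlapped at a low level, and in SK-Mel5 both shp300 arrays lay below both scrambled arrays. ADM fell by 1.26 (2.39-fold, SE 0.173, adjusted p = 0.00233) in SK-Mel5, with 0.04 (95% interval -0.36 to 0.44, adjusted p = 0.916) in WM983B, and the difference was 1.30 (SE 0.244, adjusted p = 0.0173). The scrambled WM983B arrays stood at percentile 42.6 of all features for ADM, not shown to be above background, so a fall might not be measurable there and the size of the difference is uncertain. The call of that difference was lost without WM983B scrambled replicate 1 (0.0627), WM983B shp300 replicate 1 (0.0568) or 2 (0.0582), SK-Mel5 scrambled replicate 2 (0.0569) or SK-Mel5 shp300 replicate 2 (0.0535). CA12, a carbonic anhydrase of the cell surface, stood below the median feature and passed in neither line, at 0.044 (95% interval -0.34 to 0.43, adjusted p = 0.901) and 0.024 (95% interval -0.36 to 0.41, adjusted p = 0.96).

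P4HA1 and P4HA2 encode the catalytic subunits of collagen prolyl hydroxylase. P4HA2 was 6.73 and 6.88 on the scrambled and 7.88 and 7.88 on the shp300 arrays in WM983B, and 5.66 and 5.93 on the scrambled and 5.98 and 6.15 on the shp300 arrays in SK-Mel5, and the shp300 arrays were the higher ones in each. It rose by 1.08 (2.11-fold, SE 0.132, adjusted p = 0.000936) in WM983B, its SK-Mel5 change was 0.27 (95% interval -0.035 to 0.58, adjusted p = 0.236), and the difference was 0.81 (SE 0.187, adjusted p = 0.0357). P4HA1 changed by 0.28 (95% interval -0.03 to 0.58, adjusted p = 0.198) and -0.27 (95% interval -0.57 to 0.039, adjusted p = 0.244). The call of the P4HA2 difference was lost on leaving out replicate 1 (0.121) or 2 (0.0842) of scrambled WM983B, replicate 1 (0.0922) or 2 (0.0918) of shp300-labelled WM983B, SK-Mel5 scrambled replicate 2 (0.106), or SK-Mel5 shp300 replicate 1 (0.0842) or 2 (0.0547).

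NDRG1, a stress-response gene and common marker of HIF activity, was 6.82 and 7.11 on the scrambled and 8.38 and 8.63 on the shp300 arrays in WM983B, and 6.67 and 6.93 on the scrambled and 6.38 and 6.47 on the shp300 arrays in SK-Mel5. Its shp300-labelled arrays were clearly the higher ones in WM983B and narrowly the lower ones in SK-Mel5. NDRG1 rose by 1.55 (2.92-fold, SE 0.154, adjusted p = 0.000354) in WM983B, its SK-Mel5 change was -0.38 (95% interval -0.73 to -0.019, adjusted p = 0.157), and the difference was 1.92 (SE 0.218, adjusted p = 0.00311). BHLHE40, a transcriptional repressor of the circadian clock that HIF induces, was 9.20 and 9.34 on the scrambled and 9.91 and 9.97 on the shp300 arrays in WM983B, and 9.25 and 9.34 on the scrambled and 8.79 and 8.64 on the shp300 arrays in SK-Mel5, in opposite order and without overlap. It rose by 0.67 (1.59-fold, SE 0.115, adjusted p = 0.00449) in WM983B and fell by 0.58 (1.5-fold, SE 0.115, adjusted p = 0.0115) in SK-Mel5, a difference of 1.25 (SE 0.163, adjusted p = 0.00444). The SK-Mel5 call of BHLHE40 was lost from the SK-Mel5 arrays alone (0.0539) and without SK-Mel5 scrambled replicate 2 (0.0735) or shp300 replicate 2 (0.0615).

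ANKRD37, a small ankyrin repeat gene and known HIF1A target, was 6.11 and 6.15 on the scrambled and 5.76 and 5.97 on the shp300 arrays in WM983B, and 5.31 and 5.66 on the scrambled and 3.79 and 3.98 on the shp300 arrays in SK-Mel5. Both lines had the shp300 arrays below the scrambled ones, by a wide gap in SK-Mel5 alone. ANKRD37 fell by 1.60 (3.03-fold, SE 0.15, adjusted p = 0.000415) in SK-Mel5, with -0.26 (95% interval -0.61 to 0.083, adjusted p = 0.281) in WM983B, and the difference was 1.33 (SE 0.213, adjusted p = 0.00924). MXI1, an antagonist of MYC, fell by 0.44 (SE 0.103, adjusted p = 0.018) in WM983B and changed by -0.28 (95% interval -0.52 to -0.046, adjusted p = 0.112) in SK-Mel5. KDM3A, a histone demethylase, passed in neither line, at 0.24 (95% interval -0.075 to 0.56, adjusted p = 0.278) and -0.083 (95% interval -0.40 to 0.24, adjusted p = 0.786). The MXI1 call was lost without WM983B scrambled replicate 1 (0.0867) or 2 (0.0839) or shp300 replicate 2 (0.0876).

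The direct test asked whether changes from scrambled to shp300-labelled arrays differed between the lines, and 12 of the 42 members were called (28.6%). The share called was 9.46% over all features and 15.7% over the features above the median level. The WM983B change was the higher one for 10 members, against 5% of all features, and the lower one for GAPDHS and PFKL, against 4.46%. Of the 12, 7 were HIF pathway genes (STC1, VEGFA, NDRG1, BHLHE40, ANKRD37, ADM and P4HA2), all with the higher change in WM983B, and 5 were glycolysis genes (21.7% of the 23). Among the 15 glycolytic enzymes only PFKL and GAPDHS were called, and none of the 4 lactate and pyruvate genes was, by limma at an adjusted p under 0.05. The glycolysis count was 8 with trend and robust moderation and 9 with dim features left out. The count of glycolysis genes was 3 on leaving out replicate 2 of scrambled or of shp300-labelled WM983B. The median difference was 0.17 over the glycolysis genes, 0.43 over the HIF pathway genes and 0.01 over all features. EP300 itself differed between the lines by 0.95 (SE 0.219, adjusted p = 0.0357), and that call was lost without any single array but WM983B shp300 replicate 1 and SK-Mel5 scrambled replicate 2 (0.0672 to 0.119).

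**Figure D3:**
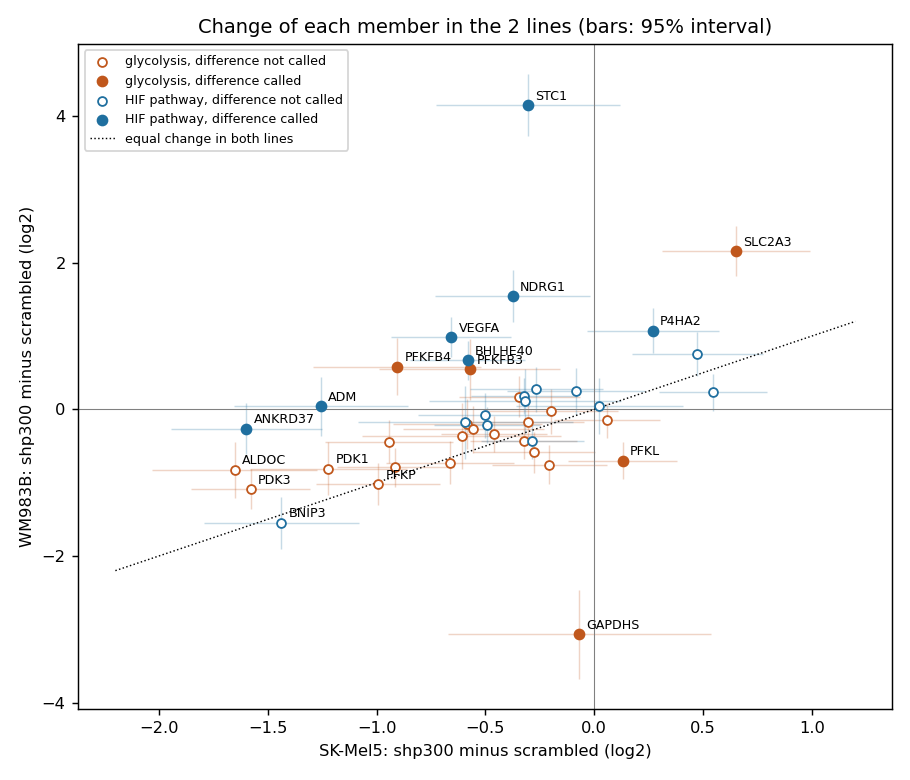
Change of each member (shp300 minus scrambled, log2) in SK-Mel5 on the x axis and in WM983B on the y axis, with 95% intervals; filled points are members whose difference between the lines limma called, and the dotted line marks equal changes. ALDOC, PDK1, PDK3, PFKP and BNIP3 lie in the lower left with both changes negative, whereas VEGFA, BHLHE40 and PFKFB4 lie in the upper left.

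**Figure D4:**
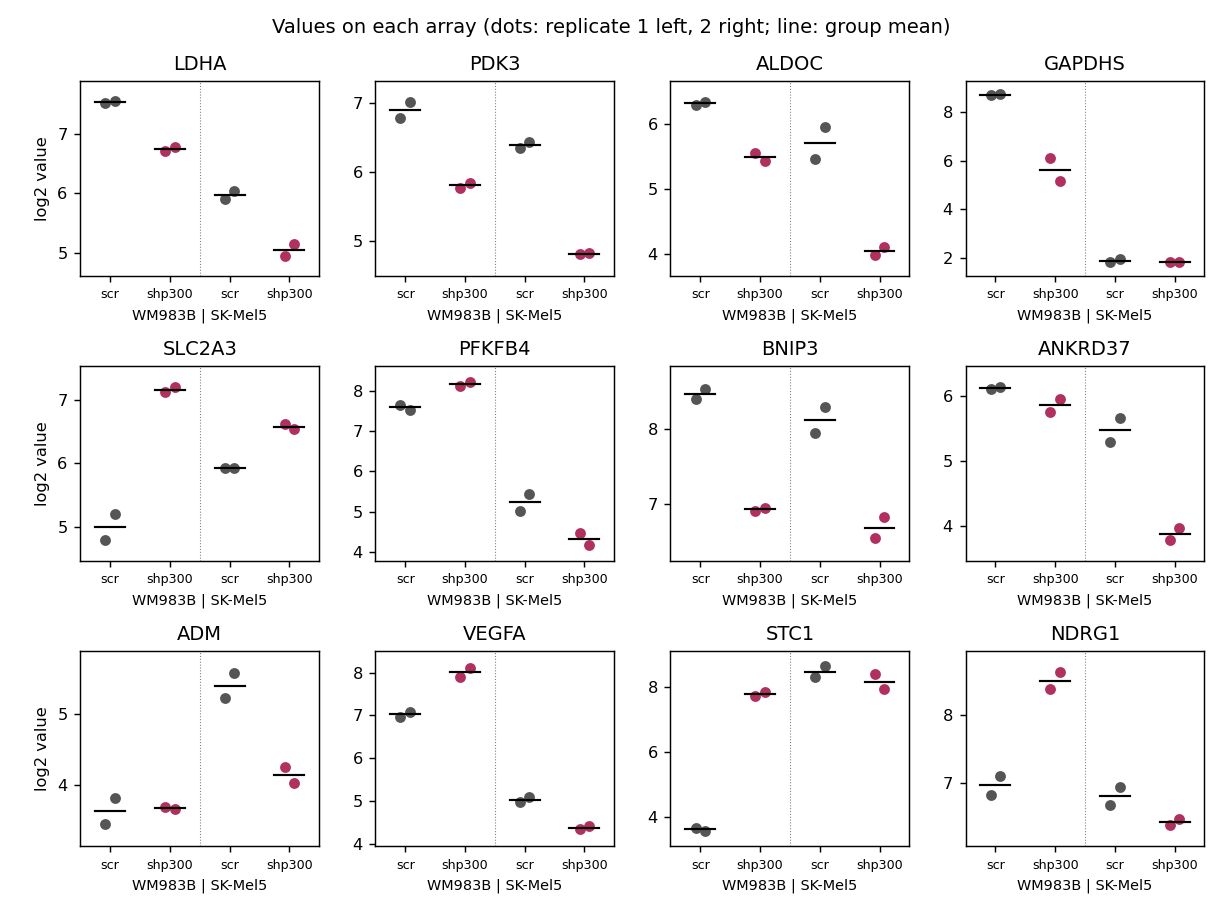
Log2 values (y axis, each panel with its own range) of 12 members on each array by group; dots are arrays, grey for scrambled and dark red for shp300, and lines are group means. LDHA, PDK3, ALDOC and BNIP3 are lower on the shp300 arrays of both lines, VEGFA and PFKFB4 turn opposite ways, and STC1 goes from near 3.6 to 7.8 in WM983B alone.

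Other genes of the same pathways were taken from 2 further lists. Calls of these genes were not tried under the alternative settings, so how far they depend on single arrays is not known. Of 34 measured other glycolysis and pyruvate genes, 8 rose and 5 fell in WM983B, and 4 rose and 5 fell in SK-Mel5, with medians of 0.01 and -0.05. These calls were 38.2% and 26.5% of the list. Of all features 22.5% and 16.4% were called, and of those above the median level 37.9% and 29.7%. TXNIP, which restrains glucose uptake, rose in both lines, by 1.26 (limma adjusted p = 0.000922) and by 1.10 (adjusted p = 0.00246). Its paralog ARRDC4 rose by 1.39 in WM983B (adjusted p = 0.000351), with a change of 0.29 in SK-Mel5 (adjusted p = 0.235). The monocarboxylate transporter family gene SLC16A4 rose by 1.85 in WM983B (adjusted p = 4.96e-05), and in SK-Mel5 it rose by 0.56 (adjusted p = 0.0108). The glucose transporter gene SLC2A12 rose by 1.06 in WM983B (adjusted p = 0.00815), with a change of -0.41 in SK-Mel5 (adjusted p = 0.248). The size of its rise is uncertain, since the scrambled WM983B level, at percentile 42.7, was not shown to be above background. The ADP-dependent glucokinase gene ADPGK rose by 0.86 in SK-Mel5 (adjusted p = 0.00394) and by 0.50 in WM983B (adjusted p = 0.0317). PFKFB2, of the PFKFB family, fell by 0.84 in SK-Mel5 (adjusted p = 0.015) and by 0.68 in WM983B (adjusted p = 0.027). The insulin-responsive transporter gene SLC2A4 fell by 0.74 in SK-Mel5 (adjusted p = 0.0462), with a change of -0.012 in WM983B (adjusted p = 0.98). In SK-Mel5 it stood at percentile 48 on scrambled and 36.2 on shp300 arrays, not shown to be above background.

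Of 28 measured other HIF pathway genes, 7 rose and 4 fell in WM983B, and 4 rose and 6 fell in SK-Mel5, with medians of 0.10 and -0.08. These calls were 39.3% and 35.7% of the list, against 37.9% and 29.7% of the features above the median level. HILPDA, a lipid droplet protein gene and HIF target, fell in both lines, by 0.86 (adjusted p = 0.0392) and by 1.52 (adjusted p = 0.00477) in limma's test. TMEM45A rose by 1.89 in WM983B (adjusted p = 0.000105), and in SK-Mel5 it rose by 0.66 (adjusted p = 0.0152). The glycogen synthase gene GYS1 fell by 1.06 in WM983B (adjusted p = 0.00144) and fell by 0.54 in SK-Mel5 (adjusted p = 0.0381). The growth inhibitor gene DDIT4 rose by 1.14 in WM983B (adjusted p = 0.000338), with a change of 0.38 in SK-Mel5 (adjusted p = 0.0565). In SK-Mel5, CITED2, whose protein competes with HIF1A for p300 and CBP, fell by 1.01 (SE 0.103, adjusted p = 0.000606), with a change of -0.10 in WM983B (adjusted p = 0.572). The transferrin receptor gene TFRC fell by 1.05 in SK-Mel5 (adjusted p = 0.000808), with a change of 0.04 in WM983B (adjusted p = 0.866). ARNT2, a paralog of ARNT, rose by 1.05 in SK-Mel5 (adjusted p = 0.00285), with a change of -0.48 in WM983B (adjusted p = 0.057).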

How the data were processed

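RNA of 8 samples in 4 groups of 2 was hybridised to Affymetrix Human Gene 2.0 ST arrays. The deposited log2 expression values were made by the authors with RMA, in affy 1.36.1 and R 2.15.1, per the submitters' processing notes. Array medians differ by 1.28 between the lines, so the lines are compared only in their changes. Features were named through the platform annotation: 22458 of 23786 have 1 symbol and 1328 none.

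A 4-group model was fitted to all 8 arrays and all features with limma 3.58.1 in R 4.3.3. It gave the change from scrambled to shp300 within each line and the difference of these changes. The spread of each feature was estimated from both lines together. Benjamini-Hochberg adjustment of the p-values took in every feature of a comparison, and a feature was called at an adjusted p under 0.05. Every analysed member is named in the text; of the other genes of the pathways, up to 4 called ones of largest change per list and line are named. The members and lists were chosen with earlier results of these data known. Alternatives were a replicate block, a filter on dim features (those below the median feature), 3 other scalings, trend and robust moderation, the 4 arrays of a line alone, and leaving out each array. The fit was tested on simulated data in which 200 features were changed. Of changes of size 1 on the log2 scale, 62% were recovered in WM983B, 66% in SK-Mel5 and 28% for the difference. For size 2 the shares were 95%, 91% and 83%. False calls made up 6.55%, 3.09% and 6.72% of the calls, in the same order. The small number of arrays limits precision. Promoter windows came from RefSeq. The probe table gave no feature for 4 of the 46 symbols.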

Additional observations from a re-analysis of the deposited data

Results flagged for a closer look

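For 12 members the change from scrambled to shp300-labelled arrays differed between the lines by limma's test of the difference. The values below are the WM983B change minus the SK-Mel5 change on the log2 scale. WM983B arrays are named as labelled, since EP300 RNA was not measurably lower on them. For STC1 it was 4.45, for ADM 1.30 and for GAPDHS -3.00, and these sizes are uncertain because 1 line had a level not shown to be above background. The other HIF pathway genes were NDRG1 (1.92), VEGFA (1.64), ANKRD37 (1.33), BHLHE40 (1.25) and P4HA2 (0.81). Among glycolysis genes, SLC2A3 (1.51), PFKFB4 (1.49) and PFKFB3 (1.12) had the higher change in WM983B, and GAPDHS and PFKL (-0.83) the lower one. Of these 12, the calls of 8 were kept under all 14 alternative settings; those of PFKL, PFKFB3, ADM and P4HA2 were not.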

How the results depend on the processing

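With 2 arrays per group, calls near the threshold turned on single arrays. Under all alternatives, 15 of 22 member calls were kept in WM983B, 9 of 21 in SK-Mel5 and 8 of 12 for the difference between the lines. Leaving out each array in turn, the called features ranged from 3146 to 5398 in WM983B, 2143 to 3648 in SK-Mel5 and 885 to 1784 for the difference. The called glycolysis genes ranged from 9 to 15, 7 to 13 and 3 to 5, and the HIF pathway genes from 7 to 8, 4 to 7 and 5 to 7, in the same order. From the SK-Mel5 arrays alone, 2050 features, 7 glycolysis and 4 HIF pathway genes were called in SK-Mel5, with fewer arrays in the fit. From the WM983B arrays alone, 2368 features were called higher and 2541 lower in WM983B, among them 9 and 13 members. In the main fit, the spread of a feature was estimated from both lines together, so many SK-Mel5 calls rest also on the WM983B arrays. Why the SK-Mel5 counts fell further was not tested. For the difference, 9 glycolysis genes were called with dim features left out (fewer features tested) and 8 with trend and robust moderation, for which the cause was not tested. Over all features, same-numbered replicates deviated together with r of 0.00303 in WM983B and 0.0277 in SK-Mel5. This check cannot show if they shared a culture or day, which the labels do not say. With the replicate number as a block, 4563 features were called in WM983B, 3161 in SK-Mel5 and 1351 for the difference. The block left 11, 11 and 3 glycolysis and 8, 7 and 6 HIF pathway genes, in that order. Calls lost under the block (adjusted p) were HK2 (0.0608), PGK1 (0.0502) and PFKFB4 (0.0928) in WM983B, ENO1 (0.0529), EPAS1 (0.0928) and ARNT (0.0792) in SK-Mel5, and the differences of PFKL (0.051), PFKFB3 (0.0633), P4HA2 (0.0531) and EP300 (0.062). Signs turned only for changes that were not called. In single scalings these were CA12 in SK-Mel5 (-0.012 after quantile normalization, -0.01 after cyclic loess), the CA12 difference (-0.002 after centring) and GAPDH in WM983B (0.041 after cyclic loess). Leaving out single arrays, the WM983B changes ranged from -0.177 to 0.123 for GAPDH, -0.109 to 0.197 for CA12, -0.145 to 0.224 for ADM, -0.468 to 0.111 for EGLN3 and -0.237 to 0.103 for EP300. The SK-Mel5 changes ranged from -0.141 to 0.004 for GAPDHS, -0.152 to 0.2 for CA12 and -0.259 to 0.092 for KDM3A. The differences ranged from -0.135 to 0.078 for PFKP, -0.186 to 0.06 for ENO2, -0.284 to 0.064 for BNIP3, -0.056 to 0.55 for TPI1 and -0.156 to 0.196 for CA12. The cause of these turns was not tested. Features near background, such as GAPDHS in SK-Mel5 and STC1 in scrambled WM983B cells, limit the size of a change that can be measured.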
